A study of Mus musculus with 12 samples.

Results

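The H2 genes of the mouse encode the major histocompatibility complex (MHC), and they were taken here as every row of the deposited expression table whose symbol starts with H2-. There were 38 such rows among 25676 genes. Of these, 27 were class I genes, 10 were class II genes and 1, *H2-Ke6*, was a dehydrogenase gene that lies in the complex and belongs to neither class. A total of 29 were above 0 in at least 1 sample and 9 were listed at 0 in every sample (*H2-T3*, *H2-M1*, *H2-M9*, *H2-M11* and *H2-M10.1* to *H2-M10.5*, all class I). Of the 29, 23 passed the filter of a mean over all samples of 0.5 or more TPM (transcript abundance relative to the library total) and were tested: 15 of class I, 7 of class II and *H2-Ke6*.

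The study sequenced RNA from whole livers of 12 mice on a C57BL/6 background at 3 to 4 months of age. The label Foxa3-Cre YAP1 KO (KO) was given to 3 males and 3 females, and the label WT to another 3 males and 3 females. *Foxa3*-driven Cre acts in the embryonic endoderm, so the deletion covers hepatocytes and bile duct cells and not the blood-derived or endothelial cells of the liver. The labels do not say whether WT mice carried Cre or floxed alleles. *Yap1* was at 0.994 to 3.11 TPM in the 6 KO livers and at 22.99 to 34.9 TPM in the 6 WT livers, in the direction of the labels.

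MHC class I molecules pair a heavy chain with beta-2-microglobulin on almost every nucleated cell and show peptides from the cytosol to CD8+ T cells. The classical heavy chains of C57BL/6 mice are *H2-K1* and *H2-D1*, and the many non-classical genes of the Q, T and M regions have narrower roles. MHC class II molecules are dimers of an alpha and a beta chain that show peptides from endosomes to CD4+ T cells. They are made mainly by professional antigen-presenting cells, which in liver include Kupffer cells, other macrophages, dendritic cells and B cells, and their transcription depends on the co-activator CIITA.

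All 38 genes lie on chromosome 17 (positions from GENCODE release M21, build GRCm38). The tested class II genes lay between 34092340 and 34316674. *H2-K1* lay before them at 33996017 to 34000347, and the tested D and Q region genes after them, from 35262730 to 35474563. The tested T region genes spanned 36005695 to 36121465, and *H2-M3* lay at 37270220 to 37274484. RefSeq promoter windows, 250 bases before to 50 bases after a transcript start, were matched by symbol for 31 of the 38 genes and 17 of the 23 tested genes. They are shown for 2 class II genes that rose and for 3 class I genes, of which 1 was higher in KO livers under both scalings described below and the others were the most abundant members. Each run covers bases -190 to -1 on the gene's own strand in build GRCm38.p6. Capitals mark the 4 motifs searched on both strands: CCAAT (or ATTGG on the other strand), an X box core like that of class II promoters (GNAAC, any 3 bases, TG), an interferon response motif (GAAA, any 2 bases, GAAA) and an NF-kappa-B motif (GGG, any 2 bases, TTCCC). No interferon motif fell in the runs printed.
H2-Aa, chr17:34287824-34288013, minus strand: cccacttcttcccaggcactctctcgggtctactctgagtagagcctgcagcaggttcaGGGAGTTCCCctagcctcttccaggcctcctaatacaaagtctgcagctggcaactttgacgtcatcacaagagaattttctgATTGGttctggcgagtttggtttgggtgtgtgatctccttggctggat
H2-Eb1, chr17:34305677-34305866, plus strand: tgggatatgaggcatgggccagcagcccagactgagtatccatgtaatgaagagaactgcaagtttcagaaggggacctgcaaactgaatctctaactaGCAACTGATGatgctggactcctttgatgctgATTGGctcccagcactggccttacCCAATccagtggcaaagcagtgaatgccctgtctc
H2-K1, chr17:34000348-34000537, minus strand: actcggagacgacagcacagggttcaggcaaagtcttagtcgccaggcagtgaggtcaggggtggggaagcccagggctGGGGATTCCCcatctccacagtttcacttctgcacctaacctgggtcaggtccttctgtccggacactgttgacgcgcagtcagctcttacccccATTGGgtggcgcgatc
H2-Q4, chr17:35379427-35379616, plus strand: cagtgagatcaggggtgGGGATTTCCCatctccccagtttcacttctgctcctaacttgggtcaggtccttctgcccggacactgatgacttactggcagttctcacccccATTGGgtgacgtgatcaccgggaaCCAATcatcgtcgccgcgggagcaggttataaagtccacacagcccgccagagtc
H2-Q10, chr17:35469899-35470088, plus strand: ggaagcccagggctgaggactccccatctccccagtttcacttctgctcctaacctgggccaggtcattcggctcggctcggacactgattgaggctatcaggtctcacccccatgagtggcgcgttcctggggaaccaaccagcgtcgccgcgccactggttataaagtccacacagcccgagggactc

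The CCAAT letters were in the windows of 8 of 8 class II genes and 19 of 22 class I genes that had one, against 37.41% of all 32851 windows in the table. The X box core was in 4 of 8 class II windows (*H2-DMb1*, *H2-Eb1*, *H2-Eb2* and *H2-Ob*) and in 1 of 22 class I windows (*H2-M5*), against 11.61% of all. In *H2-Eb1* these letters stood at -91 to -82, upstream of an ATTGG at -59 to -55. The NF-kappa-B motif was in 5 class I windows (*H2-K1*, *H2-D1*, *H2-Q4*, *H2-Q6* and *H2-Q7*) and 2 class II windows (*H2-Aa* and *H2-Oa*), against 1.753% of all. The interferon motif was in the windows of *H2-T22* and *H2-T23* and in no class II window, against 3.443% of all. *H2-Q10*, printed above, held none of the 4 motifs. These are matches of letters and not measured sites, and overlapping windows of 1 gene counted once.

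TPM is a share of each library, and the KO minus WT difference of log2(TPM + 1) had a median of 0.35 over all 12278 tested genes, which became -0.04 after rescaling each library by the median of its gene ratios. Differences are therefore given on TPM as deposited and again after this rescaling. The WT male replicate 2 library, whose identifier lies apart from the other 11, was the lowest WT library for 7 of 7 tested class II genes and 8 of 15 class I genes. The KO female replicate 1 library, from an animal numbered well before most others together with WT female replicate 3, was the highest KO library for 6 of 7 class II and 8 of 15 class I genes. The 5 class II genes and 3 class I genes called under both scalings were also called on TPM as deposited without either of these libraries, and without both low-numbered animals. Leaving out libraries was not run on the rescaled values.

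The class II genes *H2-Aa*, *H2-Ab1*, *H2-Eb1*, *H2-DMa* and *H2-DMb1* were several-fold higher in KO livers, and among class I genes *H2-Q1* was. At low levels in both genotypes, *H2-Q2* was also called higher under both scalings, with a smaller difference. On TPM as deposited, limma called 6 of 7 class II genes higher and 0 lower at an adjusted p under 0.05, and 8 of 15 class I genes higher and 0 lower, where 50.1% of all tested genes were called higher and 4.82% lower. The median difference was 2.14 over the class II genes and 0.40 over the class I genes, beside 0.35 over all genes. After rescaling, 5 of 7 class II genes were higher and 0 lower, with a median of 1.72. Among the class I genes, 3 were higher and 2 lower, with a median of -0.06, where 20.6% of all genes were called higher and 18.8% lower. The class I counts of genes called higher include *H2-Q2*, which passed the filter only through its KO values, so that its KO mean had to be the higher. The difference between the medians of the classes was not itself tested.

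**Figure D1:**
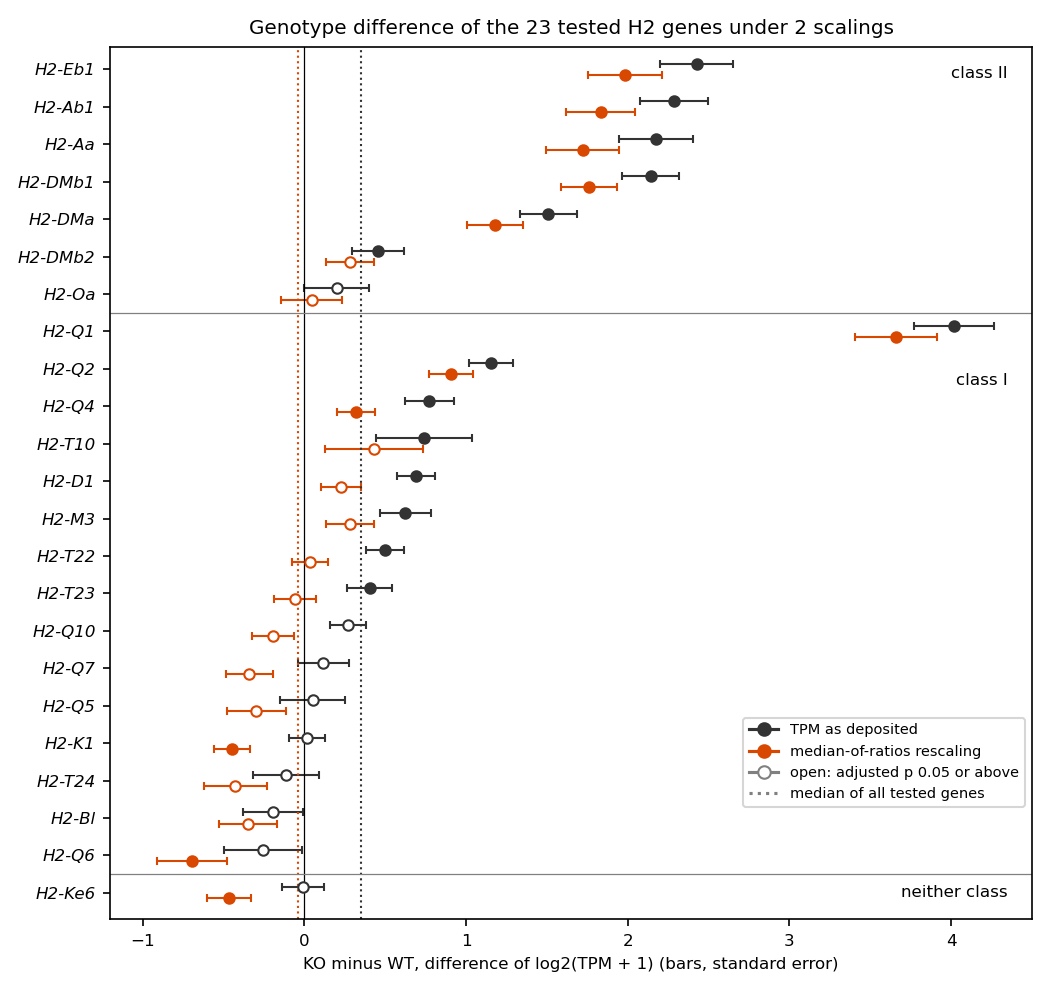
KO minus WT difference of log2(TPM + 1) for the 23 tested H2 genes, on TPM as deposited and after median-of-ratios rescaling; bars are standard errors, filled points passed the adjusted p threshold of 0.05, and dotted lines are the medians of all tested genes (0.35 and -0.04). The 5 uppermost class II genes and *H2-Q1*, *H2-Q2* and *H2-Q4* are filled to the right of 0 in both scalings, while *H2-K1* moves from 0.02 to -0.45.

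The classical class II chains gave most of the class II signal. *H2-Aa* encodes the alpha chain and *H2-Ab1* the beta chain of I-A, the molecule that C57BL/6 mice use to present to CD4+ T cells. *H2-Aa* was at 33.8, 12.1 and 20.7 TPM in WT males and 39.6, 27.9 and 43.6 in WT females, against 156, 93.7 and 86.7 in KO males and 189, 131 and 134 in KO females. Every KO liver lay above every WT liver, and within each genotype the ranges of the sexes overlapped. *H2-Aa* differed by 2.18 on the log2 scale (SE 0.23), a 4.52-fold difference with a limma adjusted p of 4.7e-06, and by 1.72 after rescaling (adjusted p = 6.0e-05).

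*H2-Ab1* was at nearly the same level as *H2-Aa*, with the same lowest WT and highest KO liver. It had a lowest, median and highest value of 14.2, 32.6 and 43.5 TPM in WT livers and of 104, 152 and 207 TPM in KO livers, with no overlap. *H2-Ab1* was 4.88-fold higher on TPM as deposited (log2 2.29, SE 0.21, limma adjusted p = 1.5e-06) and differed by 1.83 after rescaling. The ratio of *H2-Aa* to *H2-Ab1*, which does not depend on scaling, was 0.954 ± 0.0661 in WT and 0.883 ± 0.0463 in KO livers (SD, n = 6 each), and its ranges overlapped.

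*H2-Eb1* encodes the beta chain of I-E. C57BL/6 mice carry a defective gene for its alpha partner, listed as *H2-Ea-ps*, and make no I-E at the cell surface. *H2-Eb1* had a lowest, median and highest value of 6.53, 17.2 and 21.8 TPM in WT livers and of 59.1, 89.3 and 110.2 TPM in KO livers. No KO liver overlapped a WT liver, and the difference was 2.43 on the log2 scale (SE 0.22, limma adjusted p = 1.5e-06), or 1.98 after rescaling. *H2-Ea-ps* was listed above 0 in 1 WT female (0.0910 TPM) and 1 KO female (0.0840 TPM), each equal to about 1 read when divided by the value of 1 read in that library. *H2-Aa*, *H2-Ab1* and *H2-Eb1* made up 92.6% ± 1.47 of summed class II TPM in WT and 93.6% ± 0.757 in KO livers (SD, n = 6 each).

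**Figure D2:**
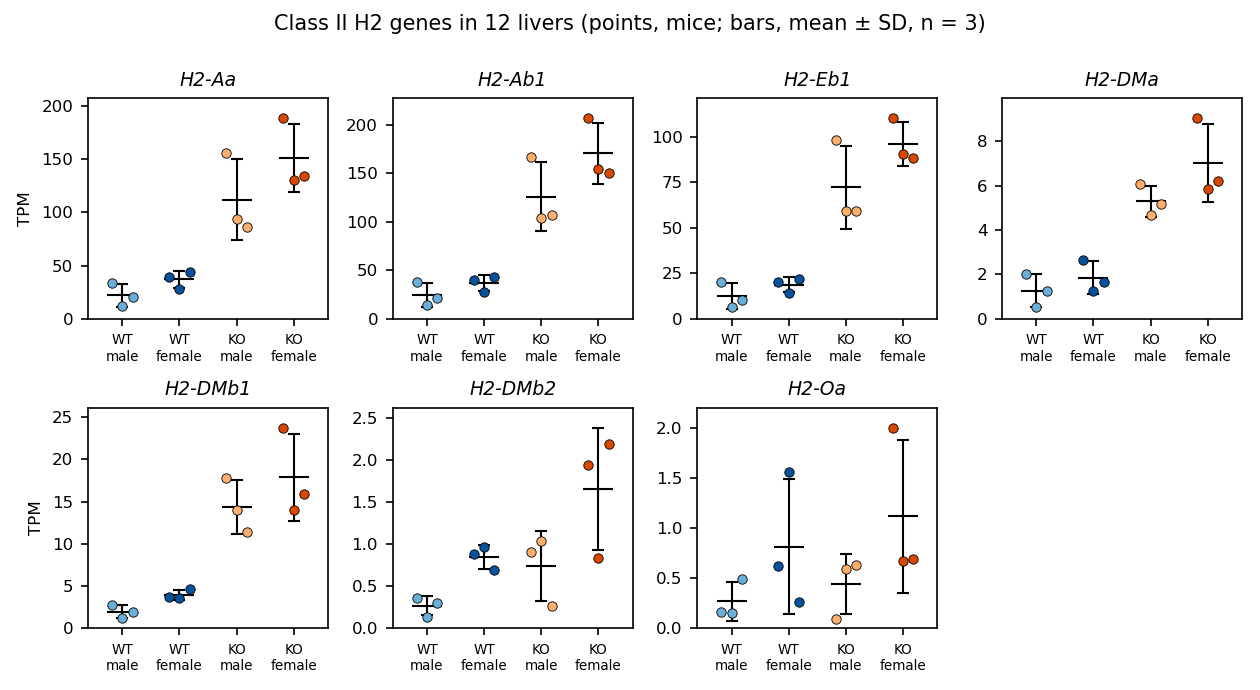
TPM of the 7 tested class II genes in each of the 12 livers by genotype and sex; points are mice and bars are the mean ± SD of 3. For *H2-Aa*, *H2-Ab1*, *H2-Eb1*, *H2-DMa* and *H2-DMb1* every KO point lies above every WT point, and *H2-DMb2* and *H2-Oa* overlap between genotypes.

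Members of the class II loading machinery were much lower in level. *H2-DMa* and *H2-DMb1* encode the chains of H2-DM, which exchanges the invariant chain fragment in the groove for peptide. *H2-DMa* was at 2.02, 0.550 and 1.23 TPM in WT males and 2.65, 1.24 and 1.68 in WT females, against 6.06, 4.66 and 5.16 in KO males and 9.03, 5.83 and 6.21 in KO females. The genotypes did not overlap, and *H2-DMa* rose by 1.51 on the log2 scale (SE 0.18, limma adjusted p = 1.2e-05), or by 1.18 after rescaling. *H2-DMb1* had a median of 3.18 TPM (1.22 to 4.65) in WT and 14.99 TPM (11.4 to 23.7) in KO livers, again with no overlap. Its difference was 2.14 (SE 0.18, limma adjusted p = 5.9e-07) and 1.76 after rescaling.

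*H2-DMb2*, the other H2-DM beta chain gene, was at most 2.20 TPM in any liver. It was at 0.365, 0.140 and 0.307 TPM in WT males, 0.888, 0.972 and 0.691 in WT females, 0.913, 1.04 and 0.263 in KO males and 1.94, 0.831 and 2.20 in KO females. The genotypes overlapped, and the call on TPM as deposited (0.46, SE 0.16, limma adjusted p = 0.027) did not hold after rescaling (0.28, adjusted p = 0.153). It was also lost when any 1 of 6 libraries was left out (WT male replicate 2, WT female replicate 3, KO male replicates 1 and 2, KO female replicates 1 and 3), with adjusted p of 0.0542 to 0.0657. *H2-DMb1* and *H2-DMb2* share 22.7% and 24.8% of the 50-base stretches of their transcripts, nearly all with each other, so reads could be split between them.

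*H2-Oa* and *H2-Ob* encode H2-O, an inhibitor of H2-DM known from B cells. *H2-Oa* ranged from 0.150 to 1.56 TPM in WT and from 0.0978 to 1.999 TPM in KO livers, and its difference of 0.20 did not pass the test (limma adjusted p = 0.413). *H2-Ob* was at 0.0232 to 0.526 TPM in WT and 0.242 to 0.644 TPM in KO livers and was under the filter. *H2-Eb2* reached at most 0.134 TPM in any liver.

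Summed over its members, class II was at 97.8, 34.9 and 57.5 TPM in WT males, 108, 77.1 and 117 in WT females, 446, 278 and 271 in KO males and 543, 398 and 398 in KO females. Class I was at 4619, 3621 and 3779.6 TPM in WT males, 4609, 4897 and 5008 in WT females, 5039, 5666 and 4744 in KO males and 5994, 5176 and 5184 in KO females. The class II sums of the genotypes were separate, and the class I sums of KO males and WT females overlapped. The class II sum as a percentage of the class I sum, a ratio that is free of scaling between libraries, was 1.81% ± 0.548 in WT and 7.32% ± 1.68 in KO livers (SD, n = 6 each). It ranged from 0.965% to 2.34% in WT and from 4.91% to 9.06% in KO livers.

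**Figure D3:**
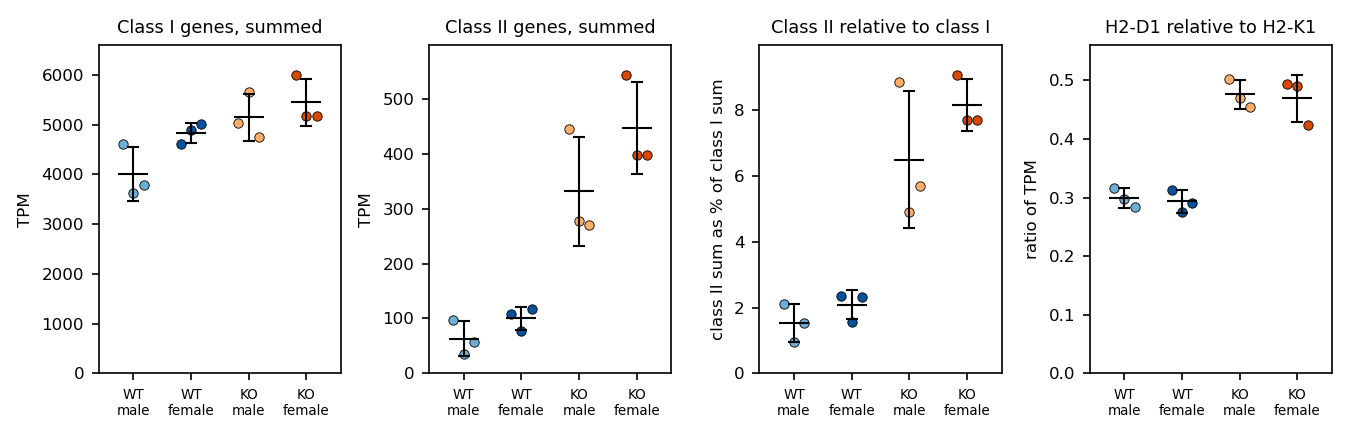
Summed TPM of class I genes, summed TPM of class II genes, class II as a percentage of class I, and the ratio of *H2-D1* to *H2-K1* in each liver; points are mice and bars are the mean ± SD of 3. The percentage is at most 2.34 in WT and at least 4.91 in KO livers, and the ratio is at most 0.317 in WT and at least 0.424 in KO livers.

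Class I transcripts came mainly from 3 genes. *H2-K1*, *H2-D1* and *H2-Q10* together held 87.9% ± 2.27 of class I TPM in WT and 86.0% ± 0.856 in KO livers (SD, n = 6 each). *H2-Q10* encodes a secreted class I molecule made by hepatocytes, and its TPM exceeded that of *H2-K1* in all 12 livers, by a ratio of 1.06 to 1.77. It was at 2067.5, 1672 and 1824 TPM in WT males, 1763, 2066.9 and 2067 in WT females, 2285, 2397 and 1931 in KO males and 2799.7, 2144 and 2318 in KO females. The genotypes overlapped, and the difference was 0.27 (SE 0.11, limma adjusted p = 0.0521) on TPM as deposited and -0.19 after rescaling, so its direction depends on the scaling. *H2-Q10* passed the threshold narrowly with a filter of 1 TPM (adjusted p = 0.0485), without the intensity trend (0.0468), and without WT male replicate 1 (0.0434), KO male replicate 3 (0.0313) or KO female replicate 2 (0.0405).

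The classical genes *H2-K1* and *H2-D1* differed from one another in how they compared between genotypes. *H2-K1* was at 1595, 1228 and 1208 TPM in WT males, 1666, 1717 and 1705 in WT females, 1388, 1712 and 1463 in KO males and 1585, 1496 and 1518 in KO females. Its difference was 0.02 (SE 0.11, limma adjusted p = 0.893) on TPM as deposited and -0.45 (adjusted p = 0.00702) after rescaling, so *H2-K1* was called lower in KO livers only on the rescaled values. *H2-D1* was at 506, 366 and 342 TPM in WT males and 522, 473 and 496 in WT females, against 698, 805 and 665 in KO males and 782, 734 and 643 in KO females.

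Every KO liver was above every WT liver for *H2-D1*, whose difference of 0.69 (SE 0.12, limma adjusted p = 0.000322) became 0.23 (adjusted p = 0.169) after rescaling. The ratio of *H2-D1* to *H2-K1* within a library needs no scaling. It was 0.296 ± 0.0165 (0.275 to 0.317) in WT and 0.473 ± 0.0297 (0.424 to 0.503) in KO livers (SD, n = 6 each). The ratio did not overlap between genotypes in either sex, and within each genotype the sexes overlapped. Both genes share sequence with other class I genes (9.63% of 50-base stretches for *H2-K1* and 12.8% for *H2-D1*).

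*H2-Q1*, a little-studied non-classical gene, showed the largest genotype difference of the 23 tested H2 genes under both scalings. It was at 1.52, 0.480 and 0.715 TPM in WT males and 2.38, 4.36 and 7.22 in WT females, against 41.9, 47.8 and 43.3 in KO males and 52.1, 62.0 and 54.9 in KO females. KO livers lay far above all WT livers, and WT males lay below WT females. *H2-Q1* differed by 4.02 (SE 0.25, limma adjusted p = 3.8e-08), a 16.2-fold difference of TPM + 1, and by 3.66 after rescaling (adjusted p = 2.2e-07). Its rows share 14.96% of 50-base stretches with other genes, most of them with *H2-Q2*.

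*H2-Q2* is a neighbour of *H2-Q1* with low counts, and the only tested H2 gene whose WT mean (0.486 TPM) was under the filter, which it passed through the KO livers (mean 2.32 TPM). It was at 0.209 to 0.747 TPM in WT livers (median 0.416) and 1.66 to 2.75 TPM in KO livers (median 2.53), with no overlap. *H2-Q2* differed by 1.16 (SE 0.14, limma adjusted p = 1.3e-05) and by 0.91 after rescaling (adjusted p = 0.000157). With its WT mean under the filter, its KO mean had to be the higher once it was tested. Divided by the value of 1 read, the 6 WT livers held about 76.9 and the 6 KO livers about 301 reads of *H2-Q2* in all.

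*H2-Q4*, which encodes the secreted Qb-1 molecule, was at 31.9, 19.9 and 29.8 TPM in WT males and 52.2, 52.3 and 50.7 in WT females, against 55.9, 58.5 and 60.6 in KO males and 87.9, 65.4 and 62.1 in KO females. Every KO liver lay above every WT liver, but the lowest KO males were close to the WT females. *H2-Q4* differed by 0.77 (SE 0.15, limma adjusted p = 0.00085) and by 0.32 after rescaling (adjusted p = 0.0457), where the genotypes overlapped. On TPM as deposited 4 class I and 5 class II genes did not overlap between genotypes, all higher in KO livers, where 28.7% of all tested genes did so. After rescaling there were 2 class I and 5 class II genes, against 10.6% of all. The 2 were *H2-Q1* and *H2-Q2*. Counted under both scalings, *H2-Q2* passed the filter only through its KO values.

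**Figure D4:**
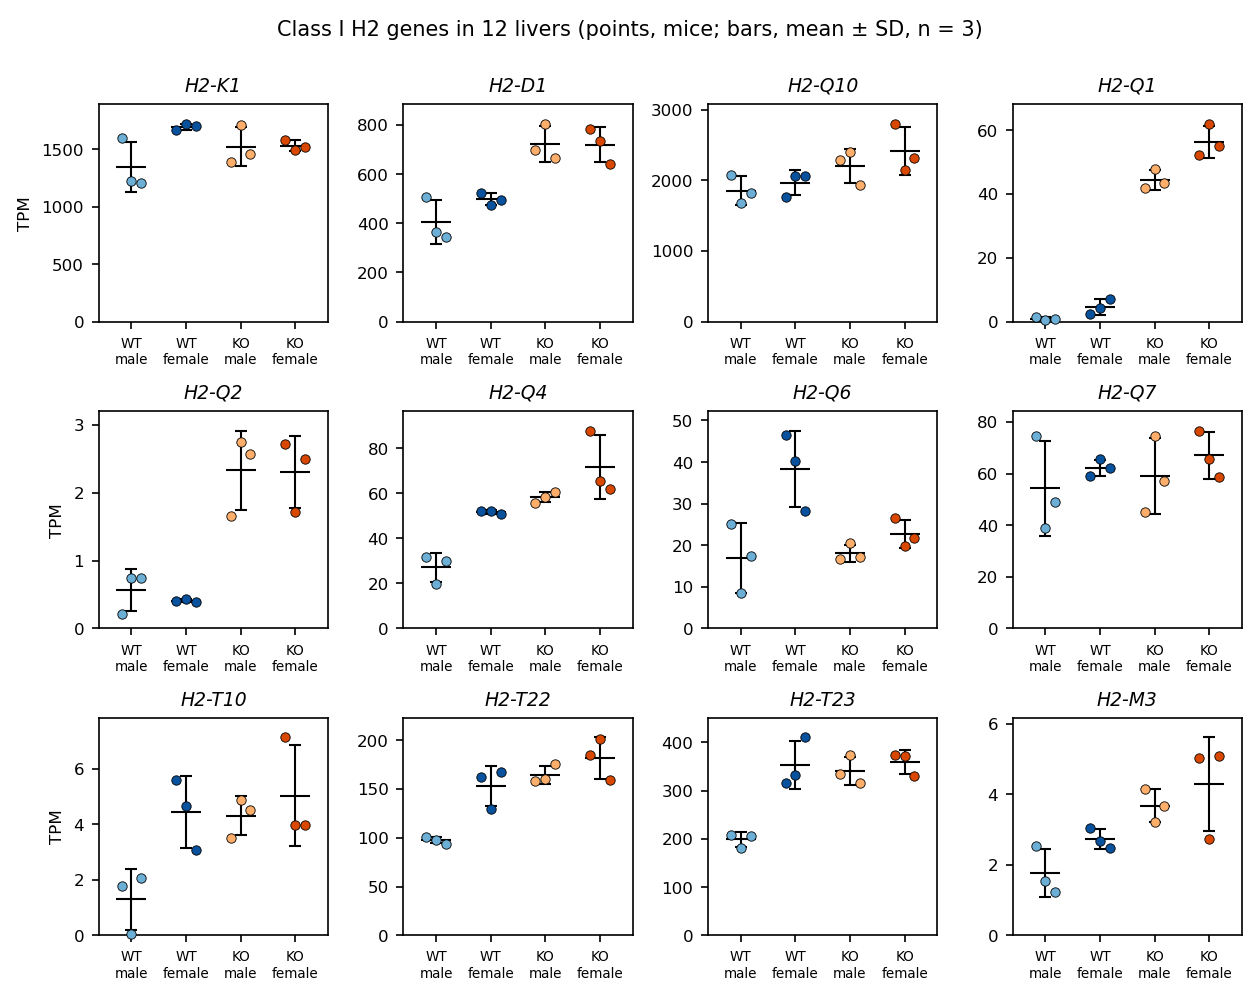
TPM of 12 class I genes in each of the 12 livers by genotype and sex; points are mice and bars are the mean ± SD of 3. *H2-Q1* is at most 7.22 TPM in WT and at least 41.9 TPM in KO livers, *H2-K1* overlaps between genotypes, and *H2-T23* is at most 209 TPM in WT males and at least 316 TPM in the other groups.

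*H2-Q6* and *H2-Q7* encode Qa-2, a molecule tethered to the cell surface by lipid. *H2-Q6* was at 25.1, 8.44 and 17.4 TPM in WT males, 46.4, 40.3 and 28.3 in WT females, 16.7, 20.4 and 17.2 in KO males and 26.5, 19.8 and 21.7 in KO females. WT females were above both KO groups and WT males were not. Its difference was -0.26 (SE 0.24, limma adjusted p = 0.388) on TPM as deposited, -0.70 after rescaling (adjusted p = 0.0211), and -0.49 on TPM as deposited without WT male replicate 2 (adjusted p = 0.0242). *H2-Q7* overlapped between genotypes at 39.1 to 74.6 TPM in WT and 45.1 to 76.6 TPM in KO livers, with a difference of 0.12 on TPM as deposited and -0.34 after rescaling, neither past the threshold. *H2-Q5*, a polymorphic pseudogene, was at 2.04 to 5.93 TPM in WT and 2.18 to 5.75 TPM in KO livers (0.05 as deposited and -0.30 rescaled, neither past the threshold). The 3 share 26.4% to 36.4% of 50-base stretches with other genes, and their single values are uncertain.

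In the T region, *H2-T23* encodes Qa-1, a ligand of inhibitory receptors on natural killer cells. It was at 209, 182 and 206 TPM in WT males and 316, 332 and 410 in WT females, against 335, 373 and 316 in KO males and 375, 372 and 331 in KO females. Only the WT males stood apart, below the other 9 livers. Over both sexes *H2-T23* differed by 0.40 (SE 0.14, limma adjusted p = 0.025) and by -0.06 after rescaling (adjusted p = 0.746). The call was lost without any 1 of WT male replicates 1, 2 or 3 or KO male replicates 1 or 2 (adjusted p of 0.0523 to 0.0604).

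*H2-T22* and *H2-T10* encode ligands of gamma delta T cells, and the annotation lists *H2-T10* as a polymorphic pseudogene. *H2-T22* was at 94.1 to 167 TPM in WT and 158 to 201 TPM in KO livers and differed by 0.50 (SE 0.12, limma adjusted p = 0.00284), or by 0.04 after rescaling. *H2-T10* was at 0.0480 to 5.59 TPM in WT and 3.51 to 7.12 TPM in KO livers. Its difference of 0.74 (SE 0.30, limma adjusted p = 0.0486) lost its call after rescaling (adjusted p = 0.278) and without any 1 of 8 libraries, which were all WT and KO males, WT female replicate 3 and KO female replicate 1 (adjusted p of 0.0519 to 0.109). Without WT male replicate 2 the value of *H2-T10* dropped to 0.45. The rows share 34.5% and 32.9% of their 50-base stretches with other genes, mostly with each other, and each overlaps exons of a gene on the opposite strand.

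*H2-M3*, which presents formylated bacterial peptides, was at 1.22 to 3.03 TPM in WT and 2.74 to 5.08 TPM in KO livers, with a difference of 0.62 (SE 0.16, limma adjusted p = 0.00451), or 0.28 after rescaling (adjusted p = 0.147). *H2-T24* and the polymorphic pseudogene *H2-Bl* were at most 4.49 TPM and 1.28 TPM. Their differences were -0.11 and -0.19 on TPM as deposited and -0.43 and -0.35 after rescaling, none past the threshold. *H2-M2* was under the filter. It was at 0.0740 to 0.345 TPM or listed at 0 in KO males, at 0.673, 1.74 and 1.45 TPM in KO females, and at most 0.210 TPM in WT livers. *H2-M5* and *H2-M10.6* were above 0 in 1 liver each. *H2-Ke6*, the dehydrogenase gene, was at 68.9 to 112 TPM in WT and 62.2 to 114 TPM in KO livers, with a difference of -0.01 that became -0.47 after rescaling (limma adjusted p = 0.0157). It shares 86.4% of its exon bases with *Gm20427* on the same strand.

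In males the genotype difference was called for 8 of 15 class I genes, all higher, where 43.3% of all tested genes were called higher. They were *H2-Q1*, *H2-Q2*, *H2-Q4*, *H2-D1*, *H2-T10*, *H2-T22*, *H2-T23* and *H2-M3*. In females 3 were called higher (*H2-Q1*, *H2-Q2* and *H2-D1*), where 29.1% of all genes were. The class II genes *H2-Aa*, *H2-Ab1*, *H2-Eb1*, *H2-DMa* and *H2-DMb1* were called higher in each sex under both scalings. After rescaling, *H2-Q1*, *H2-Q2* and *H2-Q4* were higher in males (13.7% of all genes). In females *H2-Q1* and *H2-Q2* were then higher (15% of all genes) and *H2-K1* and *H2-Q6* lower (11%). Each count of higher class I genes in a sex includes *H2-Q2*, which passed the filter only through its KO values. The call of *H2-D1* in females was lost without any 1 of WT female replicates 2 or 3 or KO female replicates 1 or 2 (adjusted p of 0.0535 to 0.0773).

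These counts do not show that the sexes differ, and the difference itself was tested as an interaction. On TPM as deposited 0 of 23 H2 genes passed it with limma, where 0.912% of all genes did, and 6 class I genes and 0 class II genes had an unadjusted p under 0.05, where 8.85% of all genes had. The smallest adjusted p was that of *H2-T23* (0.158), with a difference of 0.78 in males and 0.03 in females. For *H2-Q1* the difference was 4.61 (SE 0.28) in males and 3.43 (SE 0.28) in females (interaction adjusted p = 0.342). Among class II genes *H2-DMb1* had the largest interaction, with a difference of 2.38 in males and 1.90 in females (adjusted p = 0.70007), and *H2-Ab1* differed by 2.38 and 2.19 (adjusted p = 0.903). After rescaling the interaction count was again 0 in limma (0.843% of all genes), with 4 genes at an unadjusted p under 0.05 (7.62% of all genes).

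**Figure D5:**
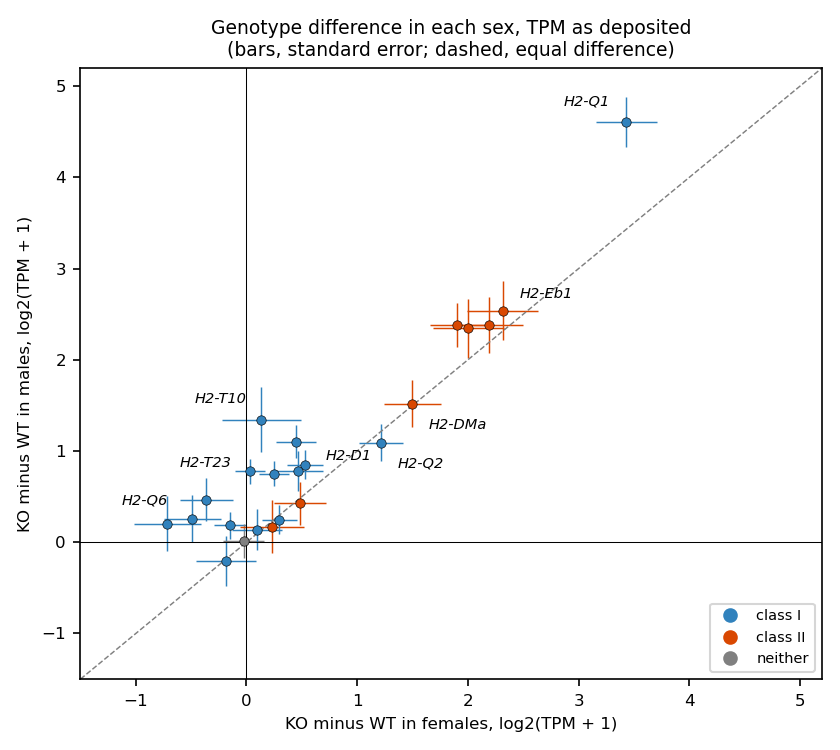
KO minus WT difference of log2(TPM + 1) in males (vertical) against females (horizontal) for the 23 tested H2 genes, on TPM as deposited; bars are standard errors and the dashed line marks equal differences. *H2-Ab1* (2.38 in males, 2.19 in females) lies near the line, and class I genes such as *H2-T23* (0.78 in males, 0.03 in females) lie above it, although 0 of 23 genes passed the test of the difference between the sexes.

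The sexes were also compared within each genotype. Among WT livers, 7 of 23 H2 genes were lower in males on TPM as deposited, where 4.6% of all tested genes were called lower. All were class I: *H2-Q1* (-1.51), *H2-T10* (-1.36), *H2-Q6* (-1.22), *H2-Q5* (-0.96), *H2-Q4* (-0.93), *H2-T23* (-0.82) and *H2-T22* (-0.64), with limma adjusted p from 0.00391 to 0.045. After rescaling *H2-Q1* (-1.45) and *H2-Q4* (-0.71) kept the call, where 2.26% of all genes were called lower. The count on TPM as deposited was 3 without WT male replicate 2 or without WT female replicate 1, and 4 without WT female replicate 2 or without KO male replicate 1. Among single genes, the call was lost in 9 of the 12 fits that left out 1 mouse for *H2-T10* (difference -1.64 to -0.87, the smallest without WT male replicate 2), in 6 for *H2-Q5*, in 5 for *H2-Q6* (smallest -0.82, without WT male replicate 2) and in 3 for *H2-T22*. In the same comparison 5 of 10 Kupffer cell and macrophage markers and 2 of 5 monocyte markers were called lower in WT males, and 0 after rescaling in limma. The macrophage sum was 117 to 146 TPM in WT males and 227 to 432 TPM in WT females, and the part of these cells in the sex difference was not tested. Among KO livers 0 of 23 genes were called (0.0814% of all genes), and 1 had an unadjusted p under 0.05 in limma, near the 5.33% of all genes that had.

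The *H2-Q6* to *H2-Q7* ratio, free of scaling between libraries, was 0.302 ± 0.0753 in WT males and 0.619 ± 0.165 in WT females, against 0.315 ± 0.0492 in KO males and 0.339 ± 0.0351 in KO females (SD, n = 3 each). WT females held the highest values, from 0.457 to 0.785, and the other groups reached at most 0.371. Of the 50-base stretches of *H2-Q6*, 13.9% are shared with *H2-Q7*, so reads could be split between them. Each *H2-Q1* to *H2-K1* ratio in WT males, at most 0.000955, was below the lowest in WT females, 0.00143.

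*Cd74* encodes the invariant chain, which guides class II dimers to endosomes. It was at 81.6, 44.0 and 52.2 TPM in WT males and 109, 69.8 and 107 in WT females, against 409, 261 and 312 in KO males and 498, 410 and 384 in KO females. *Cd74* rose by 2.33 (SE 0.17, limma adjusted p = 2.3e-07), or by 1.87 after rescaling. The ratio of *H2-Ab1* to *Cd74* was 0.394 ± 0.0477 in WT and 0.389 ± 0.0260 in KO livers (SD, n = 6 each), with overlapping ranges.

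*Ciita*, the class II co-activator, was low, at 0.0197 to 0.343 TPM in WT and 0.646 to 1.64 TPM in KO livers, without overlap. Its difference was 0.76 (SE 0.13, limma adjusted p = 0.000347), or 0.61 after rescaling. *Ciita* passed the filter only through the KO livers (mean 1.09 TPM, against 0.224 TPM in WT), so that it had to differ once tested. Of 13 tested genes of a class II pathway list of 16, 8 were higher and 0 lower (50.1% and 4.82% of all tested genes), and after rescaling 7 were higher and 1, *Nfyb*, lower (20.6% and 18.8%). The transcription factor genes *Rfxap*, *Rfxank*, *Creb1*, *Nfya* and *Nfyb* were not called on TPM as deposited. By contrast, *Rfx5* was called higher under both scalings (0.78, and 0.38 after rescaling), and *Nfyc* on TPM as deposited alone (0.35). The largest differences were those of the protease genes *Ctss* (2.39) and *Lgmn* (2.07), which trim the invariant chain or antigen, and of *Cd74*. The list's median difference was 0.76, or 0.38 after rescaling.

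*B2m*, the light chain common to all class I molecules, was at 2432 to 3188 TPM in WT and 2162 to 3225 TPM in KO livers, with a difference of -0.03 (SE 0.13, limma adjusted p = 0.844) that became -0.50 after rescaling (adjusted p = 0.0151). *Nlrc5*, the class I co-activator, was at 1.76 to 5.86 TPM in WT and 4.57 to 7.43 TPM in KO livers, with a difference of 0.46 (limma adjusted p = 0.0654), or 0.08 after rescaling. The *Nlrc5* difference was 0.27 without WT male replicate 2 (adjusted p = 0.0996), and it was called without WT male replicate 3 (adjusted p = 0.0357) or KO female replicate 3 (0.0358). Of 15 tested genes of the class I pathway list, 7 were higher and 0 lower on TPM as deposited, where 50.1% of all genes were higher, and 1 was higher and 2 lower after rescaling (20.6% and 18.8% of all genes). The deposited count was thus near the share of all genes. The largest differences were those of *Tapbp* (0.95), the tapasin of the peptide-loading complex, the chaperone gene *Calr* (0.64) and the peptide transporter gene *Tap2* (0.53). *Tapbp* was the gene that stayed higher after rescaling (0.49, adjusted p = 0.00801).

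MHC-like genes outside the H2 rows gave 3 of 6 tested higher and 0 lower, near the 50.1% of all genes called higher, and 2 higher and 2 lower after rescaling (20.6% and 18.8% of all genes). *Procr* differed by 0.93 and *Mr1*, which presents vitamin metabolites to MAIT cells, by 0.81, both called under both scalings, and *Hfe*, a regulator of iron uptake, by 0.73 and by 0.28 after rescaling, without a call there. Of 8 tested genes of the interferon gamma axis 5 were higher and 0 lower, against 50.1% of all genes higher, and 3 were higher and 2 lower after rescaling (20.6% and 18.8% of all genes). The receptor chains *Ifngr1* (1.66) and *Ifngr2* (1.32) and the transcription factor gene *Irf8* (1.36) led the list and were called under both scalings. *Ifng* itself was listed at 0 in 8 of 12 livers and reached 0.177 TPM.

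Counts of cell type markers called higher are read against 50.1% of all genes on TPM as deposited and 20.6% after rescaling. All 10 Kupffer cell and macrophage markers were higher in KO livers on TPM as deposited and 9 after rescaling, and their summed level was 117 to 432 TPM in WT and 691 to 1388 TPM in KO livers. The 5 monocyte markers and the 3 leukocyte markers were called higher under both scalings, of which *Ccr2* and *Itgam* passed the filter only through the KO livers, with sums of 23.1 to 92.3 TPM against 199 to 467 TPM and of 8.38 to 26.0 TPM against 45.2 to 100.4 TPM. Of 9 dendritic cell markers 4 were tested and 2 were higher under both scalings, with sums of 2.47 to 7.03 TPM in WT and 7.98 to 17.6 TPM in KO livers. Of 7 B cell markers 3 were tested, and 2 were higher on TPM as deposited and 1 after rescaling (1 of the 2 passed the filter only through the KO livers), with overlapping sums of 1.19 to 7.48 TPM against 2.51 to 5.73 TPM, and the defining marker *Ms4a1* was at most 0.505 TPM in any liver. Of 5 T cell markers 3 were tested and 0 were called by limma. No natural killer cell marker passed the filter. Of 5 hepatocyte markers *Hnf4a* was higher (0.33) and *Ttr* lower (-1.10) on TPM as deposited. After rescaling *Ttr* (-1.57) and *Alb* (-0.74) were lower and 0 higher. *Apoa1* and *Cps1* were not called under either scaling. Of 5 sinusoidal endothelial markers *Kdr* was lower under both scalings (-0.62 and -1.02), and *Lyve1* after rescaling alone (-0.46), with 0 higher. Of 3 tested biliary markers *Sox9* was higher under both scalings (1.57 and 1.17), *Epcam* was lower under both (-0.35 and -0.53) and *Krt19* was not called.

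The KO female replicate 1 library, highest in most class II genes, also had the highest summed macrophage markers (1388 TPM), monocyte markers (467 TPM) and leukocyte markers (100.4 TPM) of the 12 livers. Among KO livers it was highest as well for the dendritic cell (17.6 TPM), B cell (5.73 TPM), T cell (4.46 TPM), natural killer cell (0.988 TPM) and sinusoidal endothelium (85.0 TPM) sums. WT male replicate 2, the lowest in class II, had the lowest macrophage sum (117 TPM) and monocyte sum (23.1 TPM), while the lowest leukocyte sum was in WT male replicate 3 (8.38 TPM, against 8.97 TPM). The ratio of *H2-Ab1* to the macrophage marker *Adgre1* was 9.49 ± 3.36 in WT and 9.38 ± 2.42 in KO livers, and that to the leukocyte marker *Ptprc* was 15.1 ± 4.82 and 20.8 ± 5.18 (SD, n = 6 each). Both pairs of ranges overlapped. *Adgre1* and *Ptprc* were singled out after their values were seen. In whole liver, more cells of a type and more RNA per cell cannot be told apart, and the part of these cells in the class II difference was not tested.

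The authors' deposited table holds its own comparison of KO with WT, with false discovery rates rounded to 2 decimals. Under a rate of 0.05, the authors' deposited table holds 5 of 10 class II genes and 4 of 18 class I genes, all higher in KO, where 14.9% of its 17332 genes with a value were higher. The authors' deposited table gives log2 fold changes of 1.94 for *H2-Aa*, 1.98 for *H2-Ab1*, 2.12 for *H2-Eb1*, 2.32 for *H2-DMb1* and 1.74 for *H2-DMa*. For class I, the authors' deposited table gives 4.51 for *H2-Q1*, 1.78 for *H2-Q2*, 1.22 for *H2-T10* and 0.59 for *H2-Q4* among those called, and -0.46 for *H2-K1*, -0.18 for *H2-Q10* and 0.20 for *H2-D1* among those not called. Of the 5 H2 genes whose sign differed between the scalings, *H2-K1*, *H2-Q10* and *H2-Q7* (-0.33) have the sign of the rescaled value in the authors' deposited table, and *H2-T23* (0.09) and *H2-Q5* (0.0047) that of the TPM as deposited.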

How the data were processed

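Whole-liver RNA of 12 mice (4 groups of 3, grouped by sample title) was measured by RNA sequencing. The deposited table gives 1 TPM value per gene and mouse, made by the authors, and each column sums to 1000000. It also holds the authors' signed fold change, log2 fold change and FDR p-value, per the file headers, which served for comparison only. The submitters' processing notes name edgeR and GRCm38 without a role; aligner, counter, annotation and use of strand are not given in the sources used here. All 12 sample columns matched 1 sample each and 0 were unmatched.

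TPM was analysed as log2(TPM + 1) for 12278 genes (mean TPM 0.5 or higher), using limma 3.58.1 in R 4.3.3 (lmFit, eBayes with intensity trend), two-sided, with Benjamini-Hochberg adjustment over all tested genes and a threshold of 0.05. Genotype was tested over all 12 mice with sex as covariate; comparisons within a sex or genotype, and the interaction (male minus female genotype difference), came from 1 model of the 4 group means. A fold is 2 to the power of that difference and understates changes of low genes. Size factors for the rescaling ran from 0.724 in a WT male to 1.34 in a KO male. The fit was tested on simulated data. Other settings were a pseudocount of 0.1 or 0.5, no filter or a mean of at least 1 TPM, no intensity trend, TPM without the 20 most abundant genes, no sex term, a term for the 2 low-numbered animals or their removal, and leaving out each mouse. P-values set each difference against the spread between mice, with the spread of each gene moderated across all tested genes.

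The files state no read depth, and 14321 to 15482 genes were above 0 in a library. For a few low members, TPM times GENCODE exon length was divided by the value of 1 read, itself estimated from low genes, to give approximate reads. Sequence sharing was counted as identical 50-base stretches between GENCODE M21 transcripts of different genes. Exons of 5 tested members (*H2-DMa*, *H2-Oa*, *H2-Q4*, *H2-T10*, *H2-T22*) overlap a gene on the opposite strand, from which their reads may not be separable. Class was assigned by symbol. Every H2 gene above 0 was eligible to be named, with *B2m*, *Cd74*, *Ciita*, *Nlrc5*, *Yap1* and the 3 largest called differences of each pathway list; ratios were chosen after values were seen. The members and lists were chosen with earlier results of these data known. Amino acid sequences were not used here.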

Additional observations from a re-analysis of the deposited data

Results flagged for a closer look

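Each of the 23 tested H2 genes was examined within each genotype for 1 mouse far from the other 5, by Dixon's ratio of the gap to the range, against its 95% critical value. Of 46 groups of 6 values, 6 held such a mouse, and chance gives about 1 in 20. KO female replicate 1 stood above the other KO livers for *H2-Q4* (87.9 TPM, next 65.4 TPM, ratio 0.705), *H2-Oa* (1.999 TPM, next 0.689 TPM, ratio 0.689), *H2-DMa* (9.03 TPM, next 6.21 TPM, ratio 0.644) and *H2-T10* (7.12 TPM, next 4.85 TPM, ratio 0.627). Among WT livers, WT female replicate 2 stood above the rest for *H2-Oa* (1.56 TPM, next 0.624 TPM, ratio 0.664) and WT female replicate 1 for *H2-Bl* (1.28 TPM, next 0.663 TPM, ratio 0.637). Without KO female replicate 1 the KO minus WT difference was 1.43 for *H2-DMa* and 0.74 for *H2-Q4*, both still called by limma, and *H2-T10* was no longer called (adjusted p = 0.0872).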

How the results depend on the processing

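Under the median-of-ratios rescaling, the number of class I genes called higher over both sexes went from 8 to 3 and the number called lower from 0 to 2. The count of class I genes higher in males went from 8 to 3, and lower in females from 0 to 2. H2 genes lower in WT males than in WT females went from 7 to 2 under the rescaling, to 4 with no filter and to 3 with a term for the low-numbered animals. The median class I difference turned from 0.40 to -0.0594 under the rescaling, and the median class II difference went from 2.14 to 1.72, or to 0.98 with no filter, which adds 3 genes near 0. Leaving out each mouse gave 6 to 9 class I genes higher and 0 to 1 lower over both sexes (1 without WT male replicate 2), 5 to 6 class II genes higher, 2 to 4 class I genes higher and 0 to 1 lower in females (1 without WT male replicate 1, WT male replicate 2 or KO female replicate 1), and 3 to 7 H2 genes lower in WT males. The class medians then ranged from 0.33 to 0.50 for class I and from 1.9985 to 2.23 for class II. Single genes that changed sign under the rescaling were *H2-K1* (-0.45), *H2-Q7* (-0.34), *H2-Q5* (-0.30), *H2-Q10* (-0.19) and *H2-T23* (-0.0594); without the 20 most abundant genes, *H2-K1* (-0.0568) and *H2-Q5* (-0.0043); and without both low-numbered animals, *H2-Oa* (-0.0107) and *H2-Q5* (-0.0264). Leaving out 1 mouse changed the sign of *H2-Ke6* (-0.0728 to 0.0714), *H2-K1* (-0.0383 to 0.0585), *H2-T24* (-0.22 to 0.0599), *H2-Q5* (-0.0228 to 0.22) and *B2m* (-0.10 to 0.0319), none of them called. The cause of these changes was not tested. *H2-T10* lost its call under 8 settings other than leaving out 1 mouse, the rescaling among them. Without a sex term *H2-DMb2* and *H2-T23* were not called (adjusted p = 0.0963 and 0.0779), *H2-T23* was not called without the 20 most abundant genes (0.33, adjusted p = 0.0600), and *H2-DMb2* was not called without both low-numbered animals (0.101). No paired analysis was possible because the labels give the groups no shared replicate numbers, which were assigned here in order of accession. The counting error of members near 0 was not estimated.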
